A study of Drosophila melanogaster with 23 samples.

Results

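The sex determination genes followed here are Sxl, tra, tra2, dsx, fru, her, ix, vir, fl(2)d and snf, 10 of the 17606 genes in the count table. They were taken by FlyBase symbol from a list of the pathway's switch genes and of the factors that these switches need, a rule that uses no measured value, and all 10 had enough counts to be tested. The series asks how the histone H3 lysine 36 methyltransferase Set2 and lysine 36 itself (H3K36) act on the male X chromosome of Drosophila melanogaster. Total RNA was sequenced from pools of whole first instar (L1) larvae of both sexes at 25 °C, in 23 libraries of 6 genotypes. The stock labelled yw gave 3 libraries and the Set2 mutant, labelled Set21, gave 4. The 4 histone genotypes gave 4 libraries each: a histone control (H3.3CtrlH3.2HWT), H4K16R with the same control H3.3 (H3.3CtrlH4K16R), H3.3K36R alone (H3.3K36RH3.2HWT) and the combined H3K36R genotype (H3.3K36RH3.2K36R). H3.3 is the histone H3 variant placed outside replication, H3.2 is the replicated histone, and K36R and K16R replace the named lysine by arginine. By label, the control shares H3.2HWT with H3.3K36R alone and the control form of H3.3 with H4K16R, and it is a different genotype from yw. Each library is a pool of 25 to 30 larvae, and neither the share of males in a pool nor the age of the larvae within the stage is given.

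In flies, sex is chosen early by the dose of X-linked signal genes, which start the female-specific gene Sxl. Sxl is an RNA-binding protein that then maintains its own female splicing and, with the spliceosomal protein Snf and the RNA methylation cofactors Vir and Fl(2)d, blocks the use of a male exon. Sxl also directs female splicing of tra and holds back male dosage compensation through msl-2. Tra, with its partner Tra2, directs splicing of dsx and fru, which end as sex-specific transcription factors. Ix is the partner that female Dsx needs, and Her acts beside this chain. Sxl, tra, dsx and fru are set apart between the sexes mainly by splicing, so a count per gene does not separate male from female transcripts, and no such split is given here.

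Library totals ran from 111138070 to 157973821 counts. Set2 itself, the gene removed in the mutant, was read at 4.97 to 7.69 counts per 1000000 counts of the library (CPM) in Set21 and at 70.4 to 82.4 CPM in yw. Several libraries stood apart from their own group. Replicate 3 of the histone control, of H4K16R and of combined H3K36R lay away from the other 3 libraries on the main axis of spread, which held 57.9% of the variance, and replicate 3 of Set21 had the lowest levels of long genes. In whole larvae, fewer cells that use a gene and less of its RNA per cell cannot be told apart.

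Levels were compared between genes per kilobase (kb) of exon. The mean over the 23 libraries was highest for snf at 41.4 CPM per kb, followed by fl(2)d at 30.6 and Sxl at 29.3. The other splicing partner, tra2, was at 11.98 CPM per kb, fru at 11.3, ix at 8.94, vir at 7.75, her at 7.20 and tra at 5.28. The terminal switch gene dsx was by far the lowest at 0.188 CPM per kb, with 88 to 395 counts in a library. When the 6 genotypes were ranked by their mean CPM, neighbours in the order overlapped in their libraries at every step for tra, dsx, fru, ix, vir and fl(2)d. Gaps between neighbours were seen for Sxl (combined H3K36R above yw, and the histone control above H4K16R), tra2 (Set21 above H3.3K36R alone, and yw above combined H3K36R), her (combined H3K36R above H3.3K36R alone) and snf (Set21 above H3.3K36R alone). The steadiest gene over genotypes was fl(2)d, whose highest group mean was 1.13 times its lowest, and the most variable was dsx, at 2.97 times.

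**Figure D1:**
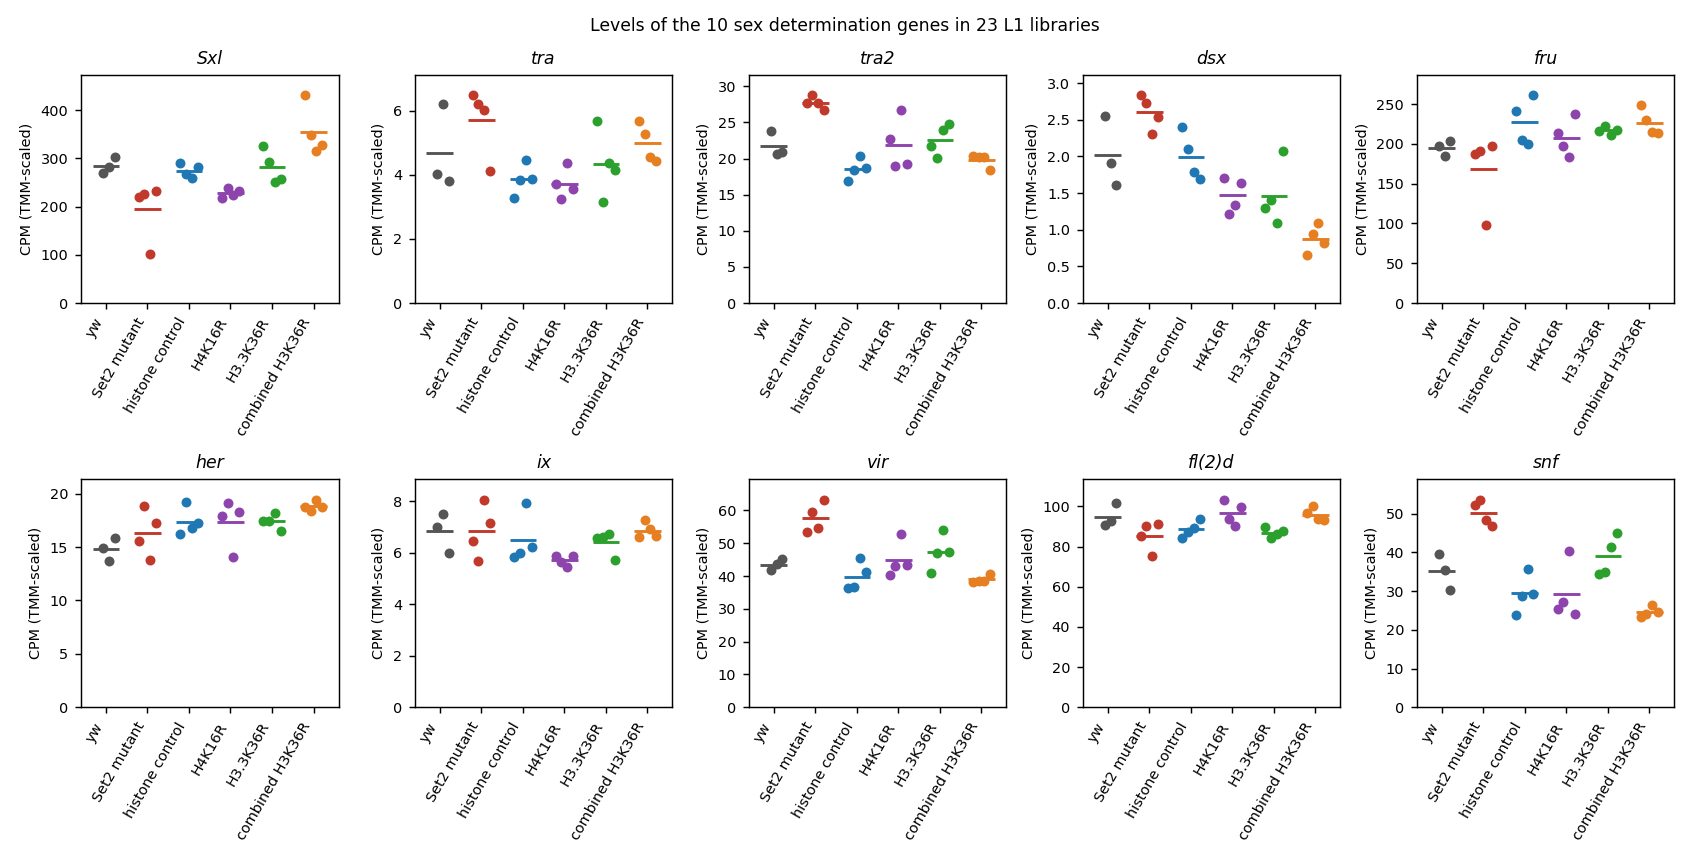
CPM (vertical axis, scaled by the library factors) of each of the 10 genes in each of the 23 libraries, by genotype; points are libraries and bars are group means. Combined H3K36R has the lowest mean dsx level, 0.878 CPM, and Set21 the highest mean levels of snf (50.2 CPM) and tra2 (27.7 CPM).

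Each comparison was tested with edgeR's quasi-likelihood test over 14365 genes, and a gene was called at a Benjamini-Hochberg adjusted p below 0.05. The comparisons of combined H3K36R, H3.3K36R alone and H4K16R with the histone control share its 4 libraries, so they are not independent of each other. In Set21 against yw, 4 of the 10 genes were called, with tra2, vir and snf higher and Sxl lower, beside 44.5% of all genes (23.4% higher and 21.1% lower). The same 4 genes were those whose libraries did not overlap between the groups, beside 46% of all genes. The share of members called was thus near that of all genes. Without replicate 3 of Set21 these 4 were still called, and without replicate 4 of yw vir alone was.

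In combined H3K36R against the histone control, 1 of the 10 genes was called, dsx, which was lower, beside 39.2% of all genes (22.8% lower). Libraries did not overlap for dsx and Sxl, beside 42.6% of all genes. The median log2 fold change of the 10 genes was 0.09 and their median absolute change 0.11, beside a median absolute change of 0.43 over all tested genes. Their median absolute change was below that of all genes in every other comparison as well. It was 0.32 beside 0.50 in Set21 against yw and 0.17 beside 0.23 in the histone control against yw. In combined H3K36R against H3.3K36R alone, 3 of the 10 were called and all were lower (dsx, vir and snf), beside 47.7% of all genes called (28% lower). In that comparison, 4 of the 10 did not overlap (her, vir, fl(2)d and snf), beside 49.7% of all genes. Without replicate 4 of H3.3K36R alone only 1 of the 10, snf, was called, and without its replicate 1 there were 5. With any 1 library left out, 6071 to 6910 of all genes were called.

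No member was called by edgeR or by DESeq2 in the other comparisons of 2 groups. For H3.3K36R alone against the histone control 1.96% of all genes were called, for H4K16R against the histone control 1.31%, and for the histone control against yw 8.08%. At an unadjusted p below 0.05 there were 4 members in the first (tra2, vir, snf and dsx), 1 in the second (tra2) and 2 in the third (tra2 and her). Of all genes, 20.3%, 14.8% and 21.2% had such a p. Non-overlapping libraries were seen for 0 members in the first, where 11% of all genes had them, for Sxl in the second, beside 8.38%, and for tra2 and her in the third, beside 22.4%. Over the 6 comparisons of 2 groups, tra, fru, her, ix and fl(2)d were called in none, and their smallest adjusted p was 0.0935, for fl(2)d in combined H3K36R against H3.3K36R alone.

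**Figure D2:**
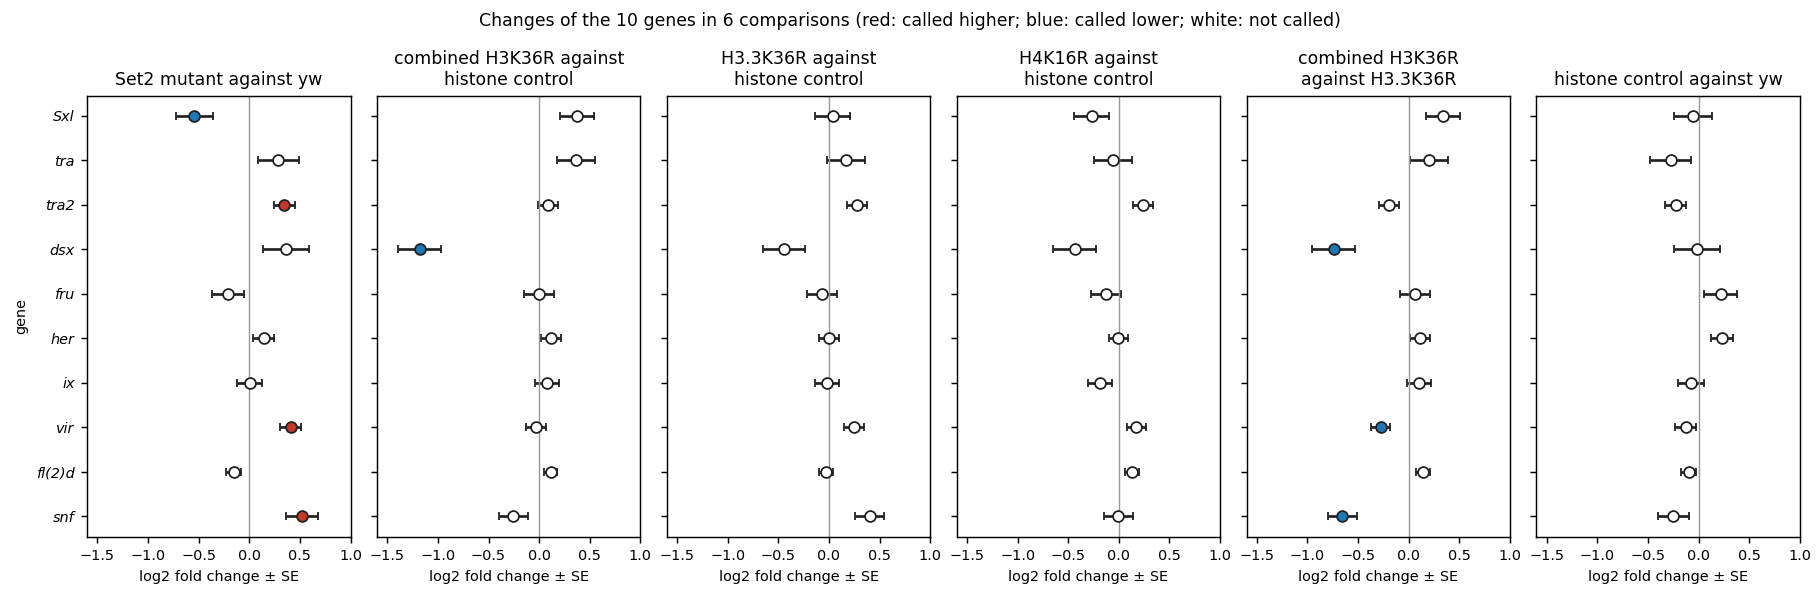
Log2 fold change with its SE (horizontal axes) of each of the 10 genes in 6 comparisons of 2 genotypes; red points were called higher, blue points lower and white points were not called. The calls lie in 3 panels: 4 genes in Set21 against yw, dsx in combined H3K36R against the histone control, and 3 genes in combined H3K36R against H3.3K36R alone.

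Sxl, the master switch (FBgn0264270, X:7074550-7098053, minus strand of BDGP6.54), was lower in Set21 larvae. Its level was 269, 282 and 303 CPM in the 3 yw libraries and 220, 225, 101 and 233 CPM in the 4 Set21 libraries. All Set21 libraries were below all yw libraries, and replicate 3 of Set21 was far below the other 3. The log2 fold change was -0.55 ± 0.18 (SE), an adjusted p of 0.0195 by edgeR. Without that library it was -0.33 (adjusted p = 0.0139), so the call did not rest on it but its size did. The call was lost without replicate 4 of yw (adjusted p = 0.0718) and when the pair of groups was fitted alone (adjusted p = 0.122).

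In combined H3K36R Sxl stood on the other side of its control. It was at 289, 267, 260 and 281 CPM in the histone control and at 430, 349, 315 and 327 CPM in combined H3K36R. The groups did not overlap, yet the change of 0.37 ± 0.17 did not pass the test (adjusted p = 0.0897 by edgeR over all groups). It passed when these 2 groups were fitted alone (0.39, adjusted p = 0.00955). With H3.3K36R alone Sxl ran from 250 to 326 CPM, which overlapped the control, and its log2 fold change was 0.04 ± 0.17. Combined H3K36R against H3.3K36R alone gave 0.34 ± 0.17 (adjusted p = 0.111), which was called without replicate 1 of H3.3K36R alone (0.47, adjusted p = 0.0434).

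In H4K16R larvae Sxl was at 217, 238, 223 and 233 CPM, below every control library. The log2 fold change of -0.27 ± 0.17 was not called (adjusted p = 0.484). X-linked genes as a set lay lower in that genotype, with a median log2 fold change of -0.15 over 2249 tested X genes against 0.08 on the arms of chromosomes 2 and 3. For X genes of 20 to 50 kb, the class Sxl belongs to, the median was -0.12.

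Among the genes whose profile over the 23 libraries was nearest to that of Sxl were the X-linked Dora and RSG7, a regulator of G-protein signalling. Their root mean square differences from Sxl in centred log2 CPM were 0.12 and 0.13. The median of that difference over 8657 genes of at least 5 mean CPM was 0.50.

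The direct partners of Sxl were tested next. The gene snf (X:5309242-5310501, plus strand) encodes the fly protein shared by the U1 and U2 spliceosomal particles. It was at 39.5, 35.4 and 30.3 CPM in yw and at 52.3, 53.6, 48.2 and 46.8 CPM in Set21. The groups did not overlap, and snf rose by 0.52 ± 0.16 on the log2 scale (adjusted p = 0.0101), a call lost without replicate 4 of yw (adjusted p = 0.0658). In the histone control it was at 23.8, 28.8, 35.7 and 29.3 CPM, with H3.3K36R alone at 34.4, 35.0, 41.5 and 45.0 CPM and in combined H3K36R at 23.4, 24.2, 26.5 and 24.7 CPM. Combined H3K36R lay below H3.3K36R alone in every library, a log2 fold change of -0.66 ± 0.14 (adjusted p = 0.000593). The control lay between them and overlapped both, and neither difference from it was called: 0.40 ± 0.14 with H3.3K36R alone (adjusted p = 0.138) and -0.25 ± 0.14 in combined H3K36R (adjusted p = 0.172). Without replicate 3 of the 4 histone genotypes the first of these was called, at 0.46 (adjusted p = 0.0284).

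The cofactor gene vir (2R:23360192-23366355, minus strand), a subunit of the complex that writes N6-methyladenosine (m6A) into mRNA and is needed for female splicing of Sxl, was called beside snf in Set21. Its level was 41.7, 43.6 and 45.3 CPM in yw and 53.5, 59.4, 54.7 and 63.3 CPM in Set21. No library of the groups overlapped, and the rise was 0.41 ± 0.10 (adjusted p = 0.00353), called in all 14 alternatives tried. In combined H3K36R it ran from 38.2 to 40.7 CPM and in H3.3K36R alone from 40.9 to 53.9 CPM, without overlap. The log2 fold change was -0.28 ± 0.10 (adjusted p = 0.0207), and it was lost without replicate 3 of combined H3K36R or any 1 of replicates 2, 3 and 4 of H3.3K36R alone, with adjusted p from 0.0596 to 0.159. It was also lost by DESeq2 (adjusted p = 0.0648) and with RLE factors (adjusted p = 0.0672), and it held in 9 of 16 alternatives. Against the histone control, vir in combined H3K36R was at -0.03 ± 0.10. The exons of vir share 75 bp with Mthfs on the other strand, a gene that moved the opposite way in Set21, -0.52 ± 0.13 (adjusted p = 0.00377).

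The other subunit in the set, fl(2)d (2R:13819624-13824553, minus strand), was not called there. It was at 90.5 to 101 CPM in yw and at 75.3 to 91.1 CPM in Set21, which overlapped, a log2 fold change of -0.15 ± 0.07 (adjusted p = 0.0967). Combined H3K36R, at 93.0 to 100.045 CPM, lay above H3.3K36R alone, at 84.2 to 89.5 CPM, in every library. That change of 0.14 ± 0.07 was not called (adjusted p = 0.0935) but was in 9 of 16 alternatives, DESeq2 (0.22, adjusted p = 0.0118) and the fits without replicate 3 or 4 of combined H3K36R or replicate 1 of H3.3K36R alone among them.

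Of the other m6A writer subunits and readers, 4 of 7 were higher and none lower in Set21 against yw, where 23.4% of all genes were higher and 21.1% lower, with a median log2 fold change of 0.32 beside 0.02 over all genes. These shares and this median of all genes also stand beside the counts of the further lists in Set21. The 4 were the catalytic subunit Mettl3 (0.92 ± 0.22), the RNA-binding subunit nito (0.41), Hakai (0.34) and Flacc (0.23). In combined H3K36R, where 39.2% of all genes were called, 1 of 7 was, the nuclear reader Ythdc1, which rose from 73.6 to 88.1 CPM in the control to 120.9 to 138 CPM, a log2 fold change of 0.68 ± 0.08 (adjusted p = 1.74e-06). Against H3.3K36R alone, Ythdc1 was again higher and Mettl3, nito and Flacc were lower. No gene of the list was called with H3.3K36R alone or in H4K16R.

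Among 9 splicing and translation cofactors of Sxl, 6 were higher and none lower in Set21, with a median of 0.32. The 4 with the largest changes were U2A of the U2 particle (0.83 ± 0.22), snRNP-U1-70K (0.51) and snRNP-U1-C (0.44) of the U1 particle, and U2af38 (0.34), the small subunit of the factor that recognises 3' splice sites. In combined H3K36R against the control, U2af38 (-0.45), snRNP-U1-C (-0.44) and snRNP-U1-70K (-0.33) fell, and the large subunit gene U2af50 rose (0.37). The list gave 2 higher and 3 lower of 9 there, where 39.2% of all genes were called (22.8% lower). Its median was -0.18 beside -0.02 over all genes. Against H3.3K36R alone, 5 of 9 were lower, beside 28% of all genes, and none higher.

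The signal genes that start Sxl act before the larval stage. Of 10 X signal elements and regulators of its early promoter, 3 were lower and none higher in Set21: run (-0.49 ± 0.14), emc (-0.24) and Stat92E (-0.21). In combined H3K36R the repressor gene dpn fell by 0.98 ± 0.20 (adjusted p = 0.000449), while gro and da rose by 0.26 and 0.22. These 3 of 10 were the genes called there, beside 39.2% of all genes. The list's medians were -0.02 and 0.08. The signal element sisA had no count in any Set21 library and at most 0.142 CPM in any other.

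Downstream of Sxl, tra (3L:16590059-16591050, minus strand) was called in no comparison. It ran from 3.82 to 6.22 CPM in yw and from 4.11 to 6.49 CPM in Set21, which overlapped (0.29 ± 0.20, adjusted p = 0.266). In the histone control it ran from 3.29 to 4.45 CPM and in combined H3K36R from 4.44 to 5.68 CPM. These ranges overlapped by 1 library on each side, and the change of 0.37 ± 0.19 was not called (adjusted p = 0.130), though it was when these groups were fitted alone (adjusted p = 0.0372). Of the exon bases of tra, 8.58% also lie in exons of l(3)73Ah on the other strand, which was called in no comparison.

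The partner tra2 (2R:14602004-14604337, minus strand) was at 23.8, 20.6 and 20.8 CPM in yw and at 27.6, 28.8, 27.7 and 26.7 CPM in Set21. Every Set21 library was above every yw library, and above every library of the other genotypes except replicate 3 of H4K16R, at 26.8 CPM. The rise of 0.35 ± 0.11 was called (adjusted p = 0.0123) and was lost without replicate 3 or replicate 4 of yw (adjusted p = 0.0570 and 0.0564). Against the histone control tra2 was at 0.28 ± 0.10 with H3.3K36R alone (adjusted p = 0.137), at 0.24 ± 0.10 in H4K16R (adjusted p = 0.253) and at 0.09 ± 0.10 in combined H3K36R.

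Tra and Tra2 act through SR proteins, splicing factors rich in serine and arginine, and their kinases. Of 8 such genes, 5 were higher and 2 lower in Set21, with a median of 0.51. The SR protein gene x16 was at 35.2 to 45.4 CPM in yw and 64.3 to 88.8 CPM in Set21 (0.91 ± 0.19, adjusted p = 0.000639). RnpS1 (0.66) and B52 (0.63) rose with it. In combined H3K36R against the control 3 fell, x16 (-0.80 ± 0.17), RnpS1 (-0.64) and B52 (-0.39), while the kinase gene Srpk79D rose (0.35). Of all genes, 39.2% were called there and 22.8% were lower. Against H3.3K36R alone, all 8 were called, 6 lower and 2 higher, where 28% of all genes were lower and 47.7% called.

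The terminal switch dsx (FBgn0000504, 3R:7924323-7967408, minus strand) was the member with the largest change. Its level was 2.40, 2.10, 1.78 and 1.69 CPM in the histone control and 0.653, 0.940, 1.096 and 0.823 CPM in combined H3K36R, from 258 to 287 and 88 to 173 counts. No library overlapped, and dsx was 2.27-fold lower, a log2 fold change of -1.18 ± 0.21 (adjusted p = 0.000137). The fall was called in all 16 alternatives tried, at -1.34 to -1.06.

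Both other histone genotypes had dsx between these groups. It was at 1.30, 1.40, 1.09 and 2.07 CPM with H3.3K36R alone and at 1.71, 1.22, 1.33 and 1.63 CPM in H4K16R. Both overlapped the control, and the changes of -0.44 ± 0.21 and -0.43 ± 0.21 were not called (adjusted p = 0.241 and 0.339). Against H3.3K36R alone, combined H3K36R had a log2 fold change of dsx of -0.74 ± 0.21 (adjusted p = 0.00648), with 1 library of each group in the other's range. Replicate 4 of H3.3K36R alone, the highest of its group, bears on that call, which was lost without it (-0.48, adjusted p = 0.0705).

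In Set21 dsx was not lower. It was at 2.55, 1.91 and 1.61 CPM in yw and at 2.83, 2.74, 2.31 and 2.54 CPM in Set21, a log2 fold change of 0.37 ± 0.23 that was not called (adjusted p = 0.205). The ranges overlapped through replicate 2 of yw.

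The exons of dsx share 169 bp, 1.84% of their length, with lds on the other strand, and reads of overlapping genes cannot be told apart without the strand setting. The level of lds was 11.4 CPM in the control and 9.44 CPM in combined H3K36R (-0.27 ± 0.18, adjusted p = 0.247), and it rose in Set21 by 0.74 ± 0.19 (adjusted p = 0.00436). Against H3.3K36R alone, lds fell by 0.61 in combined H3K36R (adjusted p = 0.00707). Its part in the dsx values was not tested. The genes nearest to dsx in profile were prc, which encodes the heart matrix protein pericardin, CG42709 and CG7149, with root mean square differences of 0.28, 0.29 and 0.30 beside a median of 0.59 over 8658 genes. None of them lies on 3R.

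The Dsx partner ix (2R:11359437-11360163, minus strand), a Mediator subunit, was even over the genotypes. Its group means ran from 5.70 to 6.85 CPM, and its log2 fold change was 0.00 ± 0.13 in Set21 and 0.08 ± 0.12 in combined H3K36R. The zinc finger gene her (2L:16677185-16679691, plus strand) ran from 13.7 to 15.9 CPM in yw and from 16.3 to 19.2 CPM in the histone control. These groups did not overlap, but the difference of 0.23 ± 0.11 was not called (adjusted p = 0.212). In combined H3K36R her had the narrowest range, at 18.4 to 19.4 CPM.

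Of 14 targets and cofactors of Dsx and Fru, 2 were higher and 4 lower in Set21, with a median of -0.16. The deacetylase gene HDAC1 rose by 0.96 ± 0.24 and the gene of the heterochromatin protein HP1a by 0.67. The transcription factor genes rn and dsf fell by 0.94 ± 0.20 and 0.84 ± 0.21. In combined H3K36R against the control 3 were higher and 2 lower, where 39.2% of all genes were called (22.8% lower). The pigmentation gene bab1, a direct Dsx target in the adult abdomen, was at 3.71 to 5.35 CPM in the control and at 14.4 to 16.8 CPM in combined H3K36R, a log2 fold change of 1.72 ± 0.13 (adjusted p = 4.21e-09). Its co-regulator Abd-B, a Hox gene, rose by 0.67 ± 0.11 and lola by 0.36, while HDAC1 fell by 0.81 ± 0.22. With H3.3K36R alone bab1 stayed within 4.25 to 5.16 CPM. The yolk protein genes Yp1, Yp2 and Yp3, known Dsx targets of the adult fat body, were called in no comparison. Yp1 was below 1 CPM in most libraries, with a single library at 8.76 CPM in the control, 12.9 CPM in H4K16R and 7.25 CPM in combined H3K36R.

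The other terminal gene, fru (3R:18414273-18545586, minus strand), which encodes BTB zinc finger factors of neurons, was called in no comparison. It was at 198, 185 and 204 CPM in yw and at 188, 191, 98.1 and 198 CPM in Set21. The groups overlapped, with replicate 3 of Set21 alone far below, and the log2 fold change of -0.21 ± 0.16 (adjusted p = 0.307) became -0.02 without that library. In the histone control fru ran from 200.4 to 261 CPM and in combined H3K36R from 214 to 249 CPM, a change of 0.00 ± 0.15. The nearest profiles were those of Antp and abd-A, both Hox genes, and tmod, an actin capping gene, all on 3R and all longer than 20 kb, with differences of 0.096, 0.10 and 0.11 beside a median of 0.42.

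Whether a gene changed alike in Set21 and in combined H3K36R was tested as the difference of both effects in the same model. It was called for 5 of the 10 genes, for 3 upwards and 2 downwards, beside 51.5% of all genes (27.9% and 23.6%). The Set21 effect was above the combined H3K36R effect for dsx by 1.55 ± 0.31 (adjusted p = 0.000311), for snf by 0.77 ± 0.21 (adjusted p = 0.00403) and for vir by 0.44 ± 0.14 (adjusted p = 0.0127). It was below for Sxl, by a log2 difference of -0.92 ± 0.25 (adjusted p = 0.00401), and for fl(2)d, -0.27 ± 0.10 (adjusted p = 0.0310). The calls of dsx and vir held in all 23 alternatives. That of fl(2)d was lost in 9, among them the fits without replicate 4 of yw, replicate 1 of Set21, replicate 1, 2 or 3 of the control and replicate 1 or 2 of combined H3K36R. For tra, tra2, fru, her and ix the difference was not called in this model, where the 95% interval for tra ran from -0.65 to 0.49.

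**Figure D3:**
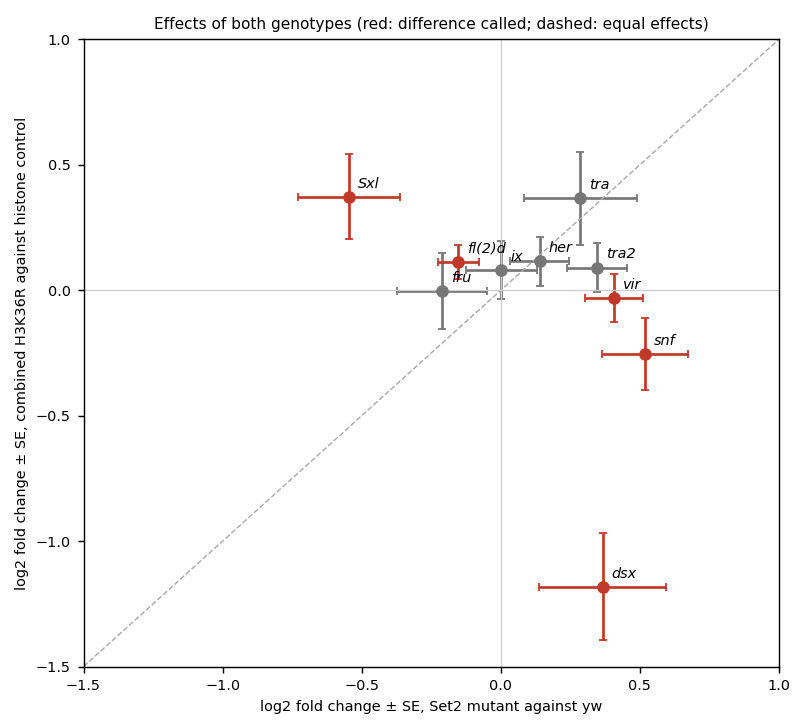
Log2 fold change with its SE of each of the 10 genes in Set21 against yw (horizontal axis) and in combined H3K36R against the histone control (vertical axis); the dashed line marks equal effects and red points the 5 genes whose effects differed by the test. Sxl lies to the upper left of the line and dsx furthest to the lower right.

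The 10 genes differ widely in length, from 0.727 kb for ix to 131 kb for fru, and gene length moved with expression in both mutants. Among 8658 genes of at least 5 mean CPM, the median log2 fold change in Set21 against yw was 0.34 for genes that span up to 2 kb and 0.15 from 2 to 5 kb. It was -0.46 from 20 to 50 kb and -0.61 above 50 kb. In combined H3K36R against the control the order was turned, from -0.38 for the shortest to 0.14 for the longest class. With H3.3K36R alone against the control the medians ran from 0.16 for the shortest to -0.12 for the longest class. There snf (0.40) and tra2 (0.28) lay above the upper quartiles of their classes, 0.33 and 0.24. X-linked genes of 20 to 50 kb had medians of -0.43 in Set21 and 0.29 in combined H3K36R, and Sxl, which spans 23.5 kb, was at -0.55 and 0.37. The lists of m6A genes, Sxl cofactors and SR proteins above were set beside all genes and not beside genes of like length. The part of length in their values was not tested.

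Of the 5 members that span less than 3 kb, ix was at 0.00 in Set21 and tra, snf, tra2 and her at 0.14 to 0.52, where short genes as a class were also higher. Against this pattern, dsx, at 43.1 kb, was at 0.37 in Set21 and at -1.18 in combined H3K36R, below the lower quartile of its class there, -0.08. The classes hold only genes of at least 5 mean CPM, and dsx (1.73 CPM) and tra (4.55 CPM) lie below that. Both are thus set beside better expressed genes of their length. Outside the quartiles of their length class in Set21 were also vir, which spans 6.16 kb and rose by 0.41 where its class had a median of -0.10, fru (-0.21, upper quartile -0.32) and fl(2)d (-0.153, lower quartile -0.146). In combined H3K36R these were, beside dsx, tra (0.37, upper quartile 0.02), ix (0.08, in the same class) and Sxl (0.37, upper quartile 0.30). Among X-linked genes of its length class alone, Sxl lay within the quartiles there, 0.11 to 0.41.

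**Figure D4:**
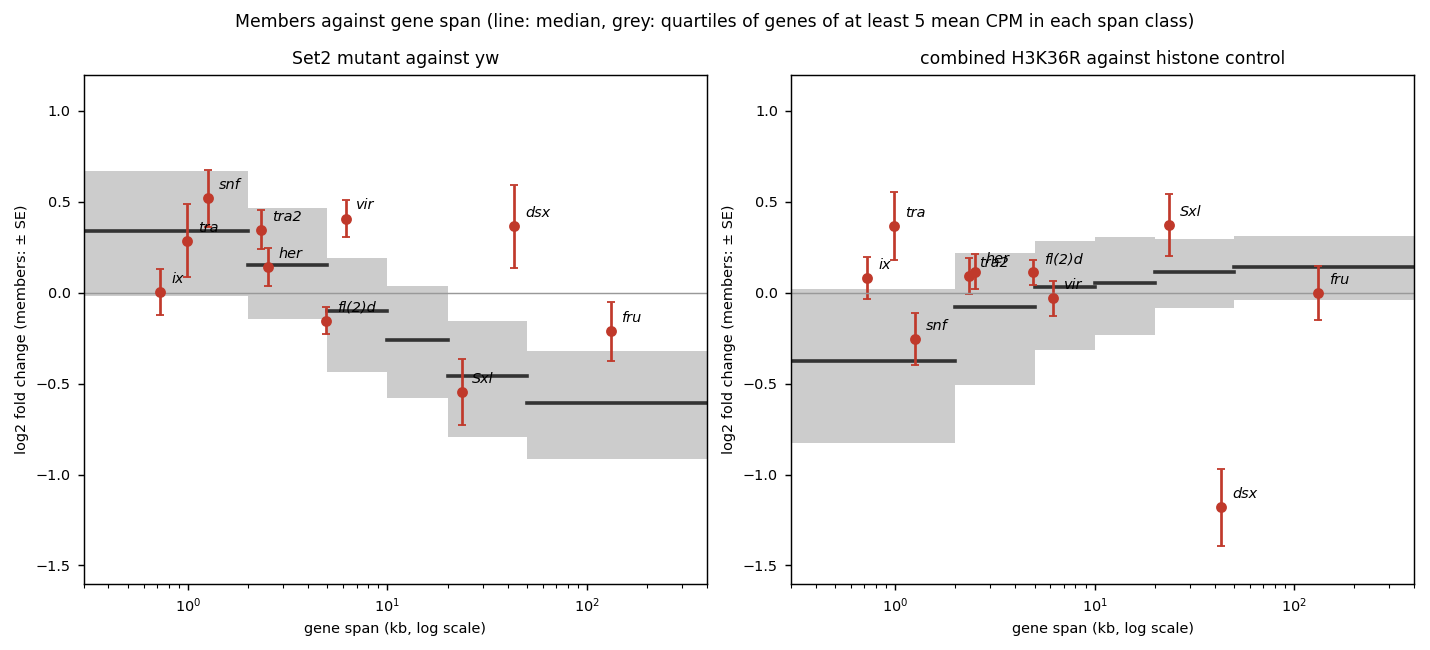
Log2 fold change with its SE (vertical axes) of the 10 genes against the length of the gene in kb (log axis), in Set21 against yw and in combined H3K36R against the histone control; black lines are medians and grey bands quartiles of all genes of at least 5 mean CPM in 6 length classes. Sxl lies close to the median of its class in Set21 (-0.55 against -0.46). The point of dsx, a gene below 5 mean CPM, lies outside the quartiles of genes of its length in both panels.

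When each library's trend of expression on gene length was removed, an alternative chosen after seeing the data, 4 members were called in Set21 against yw, vir as before and 3 others. The rise of vir was 0.48, dsx (0.89, adjusted p = 0.00611) and fru (0.44, adjusted p = 0.000452) were called higher, and ix was lower (-0.36, adjusted p = 0.0272). The changes of Sxl (-0.17, adjusted p = 0.366), tra2 (0.14) and snf (0.17) were not. In combined H3K36R against the control dsx was at -1.28 (adjusted p = 8.51e-05), and tra (0.84), tra2 (0.28) and ix (0.63) were called higher. The difference of effects was no longer called for Sxl (-0.46, adjusted p = 0.0509) or snf (0.03). It was newly called for tra (-0.92, adjusted p = 0.0069), ix (-0.99, adjusted p = 7.61e-05) and fru (0.61, adjusted p = 0.00017). Against H3.3K36R alone, the fall of snf was no longer called (-0.10, adjusted p = 0.435). There tra (0.84), ix (0.82), her (0.39) and fl(2)d (0.20) were newly called higher and fru (-0.23) lower.

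The 3 longest members were set library by library against long genes of at least 5 mean CPM, a set that leaves out dsx. The median deviation of 943 genes over 20 kb from their own means was -0.77 in replicate 3 of Set21 and -0.41 to -0.30 in its other libraries, on the log2 scale. It was 0.17 to 0.28 in combined H3K36R and -0.14 to 0.19 in the other groups. The low Sxl and fru values of replicate 3 of Set21 thus came from the library where long genes in general were lowest. In dsx the order was reversed: the Set21 libraries were high and the combined H3K36R libraries low.

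**Figure D5:**
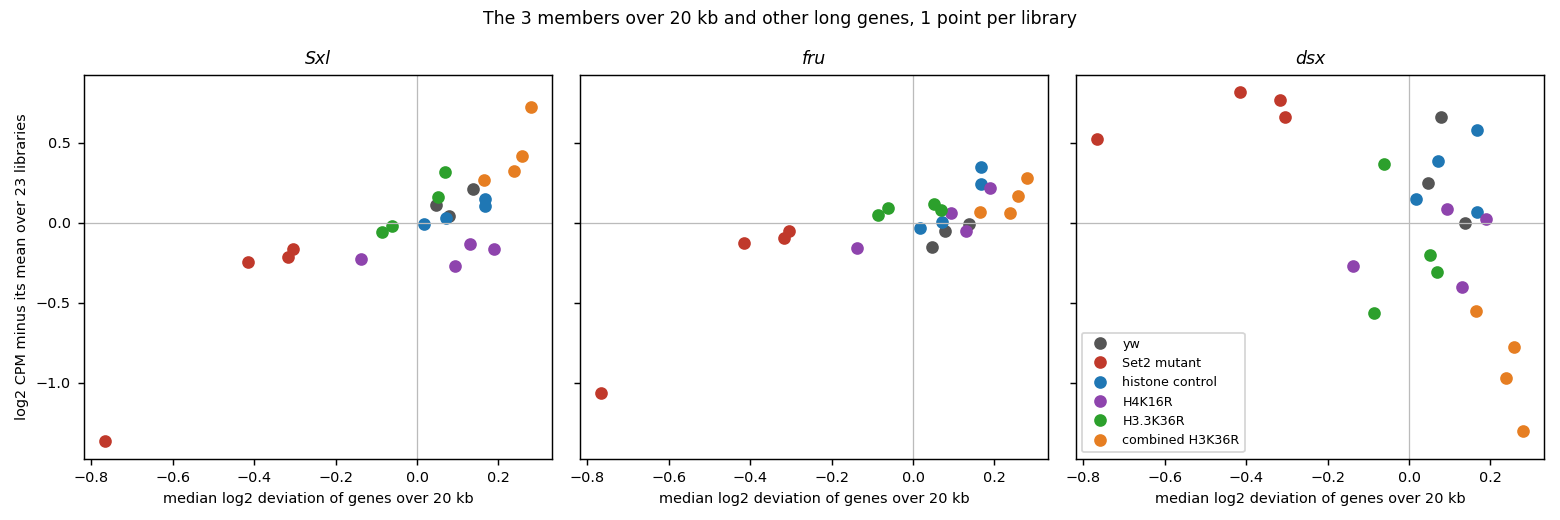
Log2 CPM of Sxl, fru and dsx minus each gene's mean over the 23 libraries (vertical axes) against the median deviation of genes over 20 kb in the same library (horizontal axis); 1 point per library, coloured by genotype. Replicate 3 of Set21 is the single point at the far left, low for Sxl and fru but not for dsx.

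Markers of male tissue and of other cell types were read beside these results, and their part in them was not tested. The roX RNAs, which are made in dosage-compensated male cells, summed to 890 to 1118 CPM in yw and 681 to 841 in Set21. The sum was 1190 to 1661 CPM in the control, 861 to 1530 in H4K16R, 711 to 933 with H3.3K36R alone and 1565 to 2088 in combined H3K36R. Against the control, both roX RNAs fell with H3.3K36R alone, by 0.77 for roX1 (adjusted p = 0.00568) and by 0.85 for roX2 (adjusted p = 0.0104), and neither was called in combined H3K36R. Since the RNAs also depend on dosage compensation, these sums do not give the share of males. The 10 Y-linked genes summed to at most 0.514 CPM in yw, with ORY, CCY, PRY, Ppr-Y and ARY at 0, and to 0.454 to 2.19 CPM in Set21. In the histone genotypes the Y-linked sum was 7.04 to 19.95 CPM. That sum does not show the single genes, which were not alike across these genotypes. In combined H3K36R against the control, 5 of 7 tested were higher and 1 lower, where 39.2% of all genes were called. Their median log2 fold change was 4.45. The sums of these 2 groups nevertheless overlapped, at 7.04 to 12.9 CPM in the control and 9.46 to 12.7 CPM in combined H3K36R. With H3.3K36R alone and in H4K16R, 1 of 7 was higher against the control.

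Of the 7 MSL genes and roX RNAs, 1 was higher and 2 lower in Set21: mof, the H4K16 acetyltransferase, at 0.31, msl-3 at -0.24 and roX1 at -0.42. The Sxl target msl-2 was not called there, nor in combined H3K36R against the control, where msl-3 rose by 0.41 ± 0.09 (adjusted p = 0.000975). Against H3.3K36R alone, roX1 (1.12), msl-3 (0.46) and msl-2 (0.39) were higher. In H4K16R against the control mof was lower (-0.41, adjusted p = 0.0443).

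Neuronal markers, of interest beside fru and dsx, summed to 1874 to 2075 CPM in yw and 639 to 1372 in Set21. Of the 8, 7 were lower, beside 21.1% of all genes. The 639 CPM came from replicate 3 of Set21, where long genes were lowest. The other Set21 libraries were at 1235 to 1372 CPM. Whether gene length has a part in these values was not tested. The 5 glial markers were all lower, at 1061 to 1173 CPM in yw and 599 to 749.9 in Set21. In combined H3K36R the neuronal sum was 2136 to 2418 CPM and overlapped the control, 1928 to 2360. The fat body sum was 710 to 1594 CPM in combined H3K36R and 3484 to 4514 in the control, with the lipoprotein gene apolpp alone called among 7 (-1.89 ± 0.19, adjusted p = 1.34e-07). The sum does not stand for the whole list: its median log2 fold change was -0.68 in combined H3K36R and -0.96 with H3.3K36R alone against the control, and 1.49 between these genotypes, with 1 gene higher and apolpp lower. Muscle markers summed to 15366 to 18787 CPM in combined H3K36R and 17437 to 24565 in the control. Of 4 tested, 2 were lower, beside 22.8% of all genes. Of 7 germline markers tested, 1 was higher in Set21 and none was called in combined H3K36R against the control.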

How the data were processed

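RNA of 23 pools of L1 larvae was sequenced as paired 100 bp reads from Nugen Ovation Universal Drosophila libraries, per the labels' protocols. The deposited values are read counts per gene for 17606 FlyBase identifiers, made with STAR 2.7.2a and Subread 2.0.3 per the submitters' processing notes. The build, annotation, strand and multi-mapping settings behind the counts are not stated in what was used here. Of counts from 5 to 19, 62.1% were even (49.9% from 1000 up), so both ends of a fragment may have been counted. The submitters dropped replicate 1 of yw for a library construction error.

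Names and positions came from BDGP6.54, which matched 99.6% of the identifiers. Counts were scaled by TMM and 14365 genes (filterByExpr, minimum count 10; 3241 removed) were fitted in edgeR 4.0.16 (R 4.3.3), with 1 mean per group over all 23 libraries and 17 residual degrees of freedom. Two-sided quasi-likelihood p-values received a Benjamini-Hochberg correction across these genes. CPM are TMM-scaled; log2 CPM used a prior count of 2. The fits were tested on simulated data. Same-number libraries of the control and H4K16R deviated together in all 4 pairs (correlations 0.32 to 0.84). Only 4 of their libraries correlated best with their own number, however. Replicate 1 of the control reached 0.56 with replicate 4 of H4K16R and 0.54 with replicate 1. A pairing by number is thus not settled by the data, and the labels give none. Nothing in the labels says that replicates are separate crosses, so p-values measure only the spread between samples, which may be technical; replicate counts differed by more than counting noise.

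The members and lists were chosen with earlier results of these data known, so lists are given as counts only. All 10 members were named; of each partner list, at most 4 called genes with the largest change per comparison, the MSL genes, and for Sxl, dsx and fru the 3 nearest profiles. The yolk protein genes, sisA, apolpp and genes overlapping a member were picked after their values were seen. The markers nos and bent were not analysed. Some genes that this rule names are not reported here. Alternatives were RLE factors, TMM factors from autosomal genes, no filter, DESeq2 1.42.0, a replicate block, a fit of the compared groups alone and each library left out; removal of the length trend and of replicate 3 of the 4 histone genotypes was chosen after seeing the data.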

Additional observations from a re-analysis of the deposited data

Results flagged for a closer look

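Of 50 groups of 4 libraries tested over the 10 genes, 4 had a library far from the other 3, where chance flags about 1 group in 20. Sxl was at 101 CPM and fru at 98.1 CPM in replicate 3 of Set21, while the other Set21 libraries were at 220 to 233 CPM and 188 to 198 CPM. In replicate 4 of combined H3K36R tra2 was at 18.5 CPM, below 20.2 CPM for the nearest library. In replicate 4 of H3.3K36R alone ix was at 5.69 CPM, below 6.57 CPM for the nearest library.

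The effect of Set21 differed from that of combined H3K36R, by the test of the difference in edgeR, for 5 genes. The log2 differences were -0.92 for Sxl, 1.55 for dsx, 0.44 for vir, -0.27 for fl(2)d and 0.77 for snf. Each effect was read against its own control genotype, yw or the histone control.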

How the results depend on the processing

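Of 1160 values of the 10 genes over the alternatives, 1105 kept their direction and their side of the threshold, counting 81 that were called in neither fit and took the other sign; 28 lost the call, 23 gained one and 4 reversed. All 4 reversals came from removing the trend on gene length: fru at 0.44 and ix at -0.36 in Set21 against yw, fru at -0.23 in combined H3K36R against H3.3K36R alone and fru at 0.61 in the difference of effects. That setting called 4 members in combined H3K36R against the control and 7 against H3.3K36R alone; fitting the compared groups alone called 3 and 5. Leaving out 1 library gave 1 to 4 members called in Set21 against yw and 1 to 5 in combined H3K36R against H3.3K36R alone. Of all genes, 4867 to 6333 and 6071 to 6910 were called in these fits. With H3.3K36R alone, 0 members were called with any 1 library left out, and 1 member and 989 genes without replicate 3 of the 4 histone genotypes.

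Counts of all genes called were least stable in the small comparisons. For H4K16R, 188 genes were called, and 399 with autosomal factors, 647 by DESeq2, 9 when fitted alone, 376 with the length trend removed and 71 (without its replicate 1) to 480 (without its replicate 3) with 1 library left out; replicates 1, 2 and 4 of the control and 4 of H4K16R also moved it over 1.5 times. For H3.3K36R alone, 282 were called, and 710 by DESeq2, 854 with the replicate block and 156 (without replicate 1 of the control) to 458 (without its own replicate 1) with 1 library left out; replicate 2 of the control and 3 and 4 of H3.3K36R alone also moved it over 1.5 times. For the histone control against yw, 1161 were called with 664 (without replicate 4 of yw) to 1083 with 1 library left out and 1638 without replicate 3 of the 4 histone genotypes. Where not stated, the cause was not tested.

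Outside the control and H4K16R, the pairs compared did not have every same-number correlation over 0.1, although among the 4 histone genotypes 3 of 4 pairs did for H3.3K36R alone with the control (4 of 8 libraries correlated best with their own number). The replicate block changed no member's call in any comparison. The lowest depth behind a member was 88 counts, for dsx in combined H3K36R, and that gene had the widest spread within groups.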
